A study of Homo sapiens with 12 samples.

Results

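The 55 genes described here encode proteins that sense and mend DNA double-strand breaks, together with the Fanconi proteins that free replication from DNA crosslinks. They were chosen by symbol for their known roles, with earlier results of these data known, and were 55 of the 60671 genes counted. All 55 were among the 18626 genes with enough reads to be tested. By role they fall into 9 genes of damage signalling, 16 of end joining, 19 of homologous recombination and 11 of the Fanconi pathway.

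RNA was sequenced from 3 human leukemia lines with 4 replicates each, 12 libraries in all, from cells in mid-log growth. K562 is the parental line, an erythroleukemia line carrying the BCR-ABL1 fusion. K/VP.5 is a clone selected from K562 for acquired resistance to etoposide. K562/SSedit-2 is 1 clone derived from K562 in which Cas9 and a repair template altered the 5′ splice site at the E19/I19 boundary of TOP2A on some but not all alleles. The labels name no drug given to the cells before RNA was taken, and the values are read as basal levels on that ground only. Whether K/VP.5 was kept in etoposide until then is not stated in the labels. The 2 derived lines are single clones, and nothing in the labels says that replicates came from separate cultures. The p values below therefore measure only the spread between these libraries, and a difference between lines cannot be told apart from a difference between clones.

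Etoposide traps topoisomerase IIα on cut DNA, and the trapped complexes become double-strand breaks when replication or transcription runs into them. Breaks are sensed by the kinases ATM and ATR and marked by phosphorylation of the histone H2AX. A cell then either joins the ends directly, under the protection of TP53BP1 and its partners, or cuts the ends back and copies the sister chromatid by homologous recombination, the route that BRCA1 promotes. The Fanconi proteins act on crosslinked DNA at stalled forks and hand the resulting breaks to recombination.

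Total counts were 28981722 to 43648830 per library, so that 3 counts corresponded to 0.0691 to 0.102 CPM (counts of a gene per 1 M counts of the library, after TMM scaling). The 55 genes summed to 5371 to 5775 CPM in K562, 5696 to 5821 CPM in K/VP.5 and 5544 to 6153 CPM in K562/SSedit-2. Of the erythroleukemia markers reported here, which leave out 1 gene of that list, GATA1 was at 245 CPM or more in every library. Among them, GATA1, LMO2 and TFRC fell in K/VP.5 by 0.49, 0.55 and 0.50 on the log2 scale while TAL1, HBG1 and ABL1 rose by 0.65, 0.72 and 0.19. In K562/SSedit-2, of the same reported markers, TAL1, HBG1, HBG2 and TFRC were higher, by 0.31 to 0.75, and BCR lower. The 5 epithelial and stromal markers, mostly EPCAM, summed to 180 to 237, 177 to 187 and 207 to 234 CPM, and all 5 changed in K/VP.5, from -6.37 for PECAM1 to 3.11 for COL1A1 on the log2 scale. The part of these differences in the results below was not tested. The B cell markers CD79A and MS4A1 stayed at or below 0.350 CPM. The T cell gene CD3D was at 23.2 CPM or more in K562 and K562/SSedit-2 and at 6.54 to 10.7 CPM in K/VP.5, with CD3E at or below 0.339 CPM throughout. TOP2A, the edited gene, averaged 402 ± 59.1 CPM (SD, n = 4) in K562 and 192 ± 16.0 CPM (SD, n = 4) in K562/SSedit-2. K562 replicate 1 stood apart from the other K562 libraries. Its chi-square per degree of freedom against them was 62.3 to 65.6, compared with 5.39 to 22.5 for all other pairs within a line. The counts of all members called in each comparison with K562 are therefore also given without it. Most other counts below are given only with it.

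Levels of the members in K562 were compared per length. XRCC6, which with XRCC5 forms the Ku ring that threads onto DNA ends, stood highest at 281 ± 8.28 CPM per kb of its canonical transcript (SD, n = 4). PARP1, which senses strand breaks and builds poly(ADP-ribose), followed at 202 ± 15.5 CPM per kb. H2AX reached 159 ± 26.0 and XRCC5 137 ± 5.11 CPM per kb, values that lie within their combined spread. The least abundant per kb were RAD54B at 1.07 ± 0.200, NHEJ1 at 1.13 ± 0.189 and RAD50 at 1.77 ± 0.183 CPM per kb. RAD54B and NHEJ1 differed by less than their SDs. The order depends on which length is used. On the union of annotated exons PARP1 was at 43.7 ± 3.34 CPM per kb, below H2AX at 159 ± 26.0 and XRCC5 at 84.7 ± 3.16, with XRCC6 still first at 184 ± 5.42. FANCL was rank 33 of 55 on its canonical transcript and rank 55 on the union of its annotated exons. Counts of some members are uncertain. Of the exon bases of RAD50, 76.9% are shared with a readthrough gene listed at 0 counts or with an antisense transcript, 76.7% of those of XRCC3 with KLC1 on the opposite strand, and 66.0% of those of RAD54B with FSBP. Smaller shares overlap other genes in further members, among them TP53BP1 (28.8%), XRCC1 (28.2%), ATRIP (26.7%, TREX1 on the same strand), NHEJ1 (25.9%), RAD54L (19.9%), FANCA (19.6%) and MAD2L2 (17.2%). Reads may also be shared with annotated pseudogenes, of which CHEK2, XRCC6, SHLD2 and PARP1 have more than 1 each, and DCLRE1C, MRE11, RBBP8, BRCA1, RAD52 and FANCD2 have 1 each.

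In K/VP.5 compared with K562, repair genes moved in both directions by less than 2-fold. By edgeR's quasi-likelihood test, with p values adjusted after Benjamini-Hochberg, 14 of the 55 were higher, 16 were lower and 25 did not pass an adjusted p of 0.1. Of all tested genes, 26.2% were higher and 26.1% were lower, 52.3% in all, so the share of repair genes that changed was near the background. None of the 55 passed a 2-fold change at that adjusted p by this test, whereas 15.6% of all tested genes did, and 9.65% of those that averaged at least 3 CPM. The count of 2-fold changes was also 0 by limma voom and by DESeq2, and 29 members had an unadjusted p under 0.05, beside 51.9% of all tested genes. Without K562 replicate 2 the count was 1, ATR. Replicates of the 2 lines did not overlap for 25 members, compared with 43.0% of all tested genes. The median log2 fold change of the members was -0.02, beside 0.01 over all tested genes. With upper-quartile scaling 19 members were higher and 14 lower, beside 53.5% of all genes called in that fit. Without K562 replicate 1 the counts were 12 and 16, beside 52.4%. In bulk RNA, fewer cells of a kind and less RNA per cell cannot be told apart. Genes of S phase summed to 4857 to 4956 CPM in K562 and 5155 to 5389 CPM in K/VP.5, with 8 of 23 higher and 4 lower, and genes of G2 and M phase to 2238 to 2870 and 2305 to 2467 CPM. Their part in the changes of the repair genes was not tested.

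**Figure D1:**
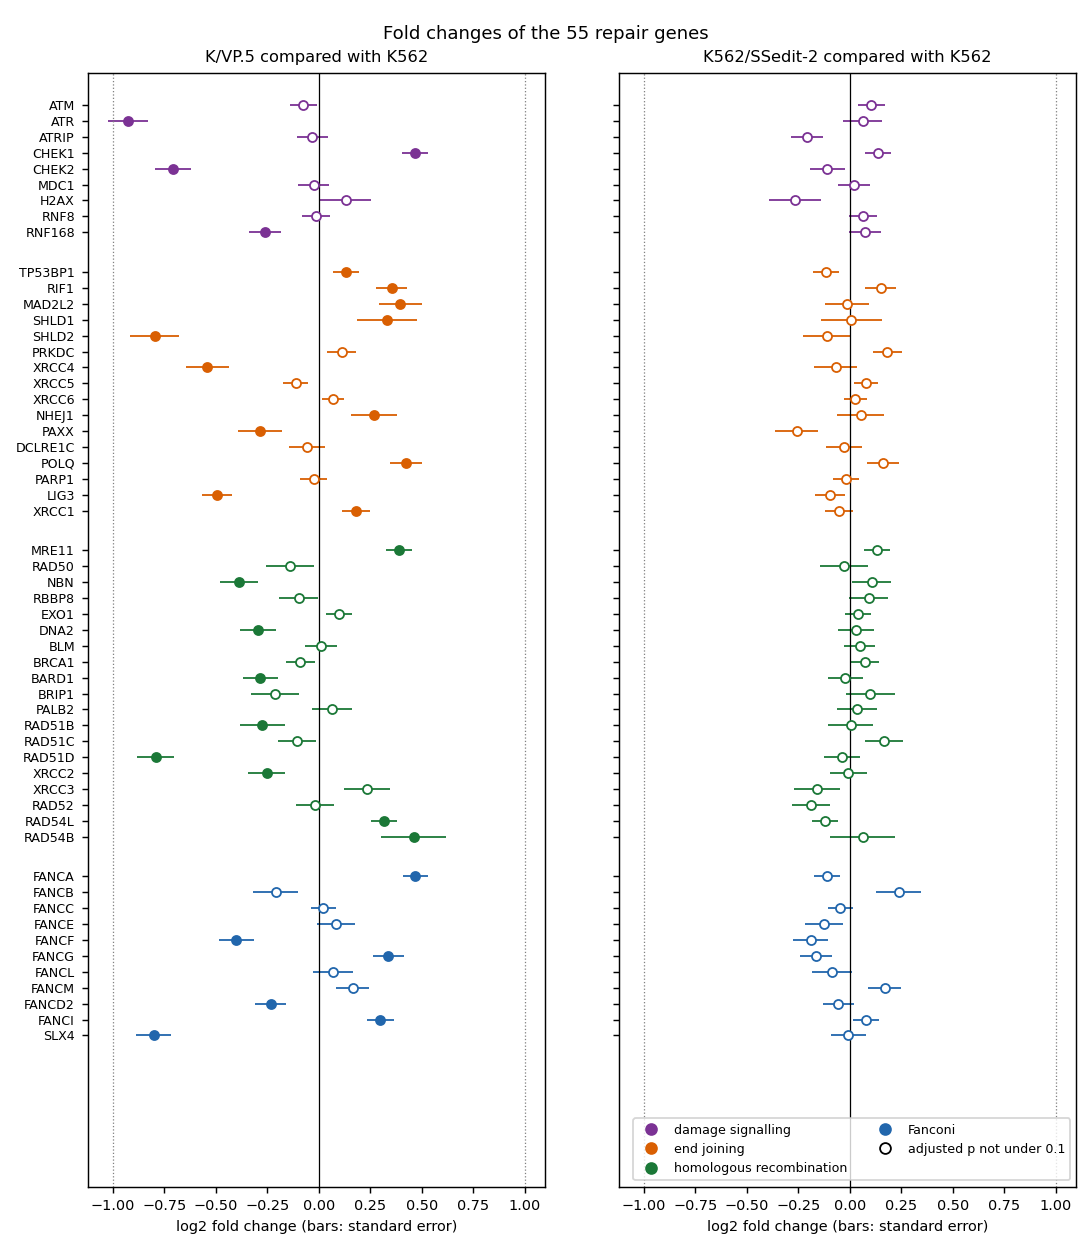
Log2 fold change of each of the 55 repair genes (horizontal axis, bars show the standard error, SE) in K/VP.5 (left) and K562/SSedit-2 (right), each compared with K562, ordered and coloured by role. Filled points passed an adjusted p of 0.1: 30 on the left, from -0.93 for ATR to 0.47 for FANCA, and none on the right, where all points lie between -0.27 and 0.24. Dotted lines mark a 2-fold change.

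Among the signalling genes, the kinases split. Of 9 members, ATR, CHEK2 and RNF168 were lower in K/VP.5, CHEK1 was higher, and ATM, ATRIP, MDC1, H2AX and RNF8 did not pass the test, beside 26.2% higher and 26.1% lower of all tested genes. ATR, the kinase that answers single-stranded DNA at stalled forks, had the largest change of all 55. It lies on chromosome 3 (ENSG00000175054, chr3:142449007-142578733, minus strand, GRCh38). Its replicates 1 to 4 read 79.1, 62.1, 71.5 and 75.9 CPM in K562, 40.2, 37.9, 37.9 and 35.8 CPM in K/VP.5, and 73.2, 69.5, 68.1 and 90.6 CPM in K562/SSedit-2. Every K/VP.5 library was below every library of the other 2 lines. The log2 fold change, given below as the change or difference on the log2 scale, was -0.93 (SE 0.10, adjusted p = 6.12e-07 by edgeR's quasi-likelihood test), a fitted level 0.526 times that of K562. ATRIP, the partner that brings ATR to DNA, had a log2 fold change of -0.03 with a 95% interval of -0.19 to 0.13.

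CHEK2, the effector kinase that ATM switches on (ENSG00000183765, chr22:28687743-28742422, minus strand), read 36.5, 27.7, 31.2 and 32.5 CPM in K562, 19.0, 19.5, 20.6 and 19.2 CPM in K/VP.5, and 31.6, 28.3, 27.1 and 31.6 CPM in K562/SSedit-2. The K/VP.5 libraries were below all others, and the change on the log2 scale was -0.71 (SE 0.09, adjusted p = 5.18e-06 by the same edgeR test). CHEK1, the effector kinase that ATR switches on, moved the other way, with a log2 difference of 0.47 (SE 0.06, adjusted p = 1.35e-05 by edgeR). RNF168, a ubiquitin ligase that amplifies the mark around breaks, fell by 0.26 on the log2 scale, although its replicates overlapped those of K562.

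ATM, the kinase that answers double-strand breaks directly, did not pass the test. It read 48.3, 43.7, 49.6 and 52.3 CPM in K562, 44.8, 46.4, 47.1 and 45.8 CPM in K/VP.5, and 51.7, 51.4, 50.8 and 54.5 CPM in K562/SSedit-2. Its log2 fold change in K/VP.5 was -0.08, with a 95% interval of -0.21 to 0.06, and it was called lower, at -0.14, without K562 replicate 2. H2AX, the histone marked at breaks, read 308, 261, 221 and 222 CPM in K562, 281, 232, 286 and 309 CPM in K/VP.5, and 245, 228, 201 and 168 CPM in K562/SSedit-2. K562 and K/VP.5 overlapped, and the interval of its log2 fold change ran from -0.13 to 0.40.

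Of the 16 end joining members 7 were higher and 4 lower, beside 26.2% and 26.1% of all tested genes. That lead of higher members was not kept when K562 replicate 1 or 2 was left out. Without replicate 1, only RIF1, MAD2L2, POLQ and XRCC1 stayed higher, and SHLD2, XRCC4, PAXX and LIG3 stayed lower. Without replicate 2, only RIF1, MAD2L2 and POLQ stayed higher, and XRCC5 joined the lower members. Of the 5 genes of end protection, RIF1 and MAD2L2 were higher, by 0.36 and 0.40 on the log2 scale, and SHLD2 was lower. TP53BP1 and SHLD1 were also called higher, by 0.13 and 0.33, but with overlapping replicates and less securely. TP53BP1 binds marked chromatin and recruits RIF1, which brings the shieldin complex of MAD2L2, SHLD1 and SHLD2 to guard ends against resection. The TP53BP1 call (adjusted p = 0.0967 by edgeR) was lost with DESeq2's size factors, with no filter on low counts and in a fit of only the 2 lines. It was also lost without K562 replicate 1, 2 or 4 or K/VP.5 replicate 2, 3 or 4. The SHLD1 call (adjusted p = 0.0734 by edgeR) was lost with no filter, and without K562 replicate 1, 2 or 3 or K/VP.5 replicate 1, 3 or 4. SHLD2, the subunit of shieldin that binds single-stranded DNA (ENSG00000122376, chr10:87094161-87191465, plus strand), read 91.1, 59.5, 63.9 and 70.3 CPM in K562, 46.6, 39.1, 41.1 and 37.1 CPM in K/VP.5, and 68.2, 60.0, 61.5 and 73.8 CPM in K562/SSedit-2. It was lowest in K/VP.5 without overlap, with a log2 difference of -0.80 (SE 0.12, adjusted p = 3.33e-05 by edgeR).

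Of the 7 genes of classical end joining, NHEJ1 was called higher and XRCC4 and PAXX lower. Replicates of NHEJ1 and PAXX overlapped between the lines. The NHEJ1 call (adjusted p = 0.0657 by edgeR) was lost with no filter and in the fit of only the 2 lines. It was also lost without K562 replicate 1 or 2 or K/VP.5 replicate 1, 2 or 3. The PAXX call (adjusted p = 0.0364 by edgeR) was lost without K/VP.5 replicate 2. XRCC4 holds the ligase of this route at the ends (ENSG00000152422, chr5:83077498-83353787, plus strand). It read 12.6, 13.1, 11.8 and 13.2 CPM in K562, 9.57, 8.78, 8.49 and 8.0 CPM in K/VP.5, and 11.3, 10.3, 13.8 and 13.1 CPM in K562/SSedit-2. All K/VP.5 libraries were below the rest, and the change on the log2 scale was -0.54 (SE 0.10, adjusted p = 0.000425 by edgeR). The most abundant genes of the route did not pass: XRCC5 had a log2 fold change of -0.11 and XRCC6 of 0.07, with 95% intervals of -0.24 to 0.01 and -0.05 to 0.18. XRCC5 was called lower without K562 replicate 2 or K/VP.5 replicate 1, and XRCC6 and PRKDC were called higher with upper-quartile scaling. PRKDC, the kinase that Ku holds at the break, read 977, 823, 970 and 977 CPM in K562, 1012, 1044, 1032 and 958 CPM in K/VP.5, and 1087, 952, 1059 and 1157 CPM in K562/SSedit-2. The lines overlapped, and its interval in K/VP.5 ran from -0.04 to 0.26.

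Alternative end joining anneals short homologies exposed at resected ends. POLQ, the polymerase of that route, was higher in K/VP.5 with a log2 difference of 0.42 (SE 0.08, adjusted p = 0.000227 by edgeR). LIG3, the ligase that can seal such joints (ENSG00000005156, chr17:34980512-35009743, plus strand), was lower, at 87.3, 84.3, 90.8 and 91.4 CPM in K562, 57.9, 65.6, 62.8 and 65.0 CPM in K/VP.5, and 73.4, 80.6, 84.7 and 92.2 CPM in K562/SSedit-2. Its K/VP.5 values did not overlap either other line, and the change on the log2 scale was -0.49 (SE 0.07, adjusted p = 3.38e-05 by edgeR). Of the exon bases of LIG3, 30.5% overlap genes on the opposite strand, whose reads cannot be told apart if counting ignored strand. XRCC1, the scaffold that stabilises LIG3, was higher by 0.18 on the log2 scale. That call was lost with no filter, and without K562 replicate 2 or 3 or K/VP.5 replicate 4. PARP1 showed no detectable difference, at 719, 797, 844 and 854 CPM in K562, 791, 786, 786 and 797 CPM in K/VP.5, and 768, 750, 791 and 866 CPM in K562/SSedit-2, with an interval of -0.16 to 0.11 for its log2 fold change.

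In homologous recombination 3 of 19 members were higher and 6 lower, beside 26.2% and 26.1% of all tested genes. Resection is begun by the complex of MRE11, RAD50 and NBN with RBBP8 and extended by EXO1, or by DNA2 with BLM. MRE11, the nuclease, rose by 0.39 on the log2 scale, NBN, the subunit that contacts ATM, fell by 0.39, and DNA2 fell by 0.29, whereas RAD50, RBBP8, EXO1 and BLM did not pass the test. EXO1 was called higher with upper-quartile scaling. Of the 4 genes of the BRCA complexes, BARD1, the binding partner of BRCA1, fell by 0.28 and the others did not pass. BRIP1, a helicase that binds BRCA1, was called lower with no filter and without K562 replicate 2, 3 or 4. Its level was 28.0 CPM in K562 replicate 1 and 18.6 to 19.6 CPM in the other K562 libraries. BRCA1 itself was called lower without K562 replicate 2, with a log2 fold change of -0.16. BRCA1 read 98.6, 80.7, 88.7 and 91.3 CPM in K562, 87.4, 85.5, 84.2 and 80.4 CPM in K/VP.5, and 96.9, 90.2, 89.1 and 102 CPM in K562/SSedit-2. The lines overlapped between K562 and K/VP.5, with an interval of -0.24 to 0.06.

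The strand exchange paralogs assist loading of the recombinase onto DNA. Of 5 members, RAD51D, RAD51B and XRCC2 were called lower in K/VP.5. The RAD51B call was lost with no filter and without K/VP.5 replicate 2 or 4, and with upper-quartile scaling both RAD51B and XRCC2 were lost. XRCC3, with a log2 fold change of 0.23, did not pass but was called higher with that scaling, with the replicate block, and without K562 replicate 3 or K/VP.5 replicate 2. RAD51D (ENSG00000185379, chr17:35092221-35121522, minus strand) read 21.6, 19.0, 20.05 and 22.2 CPM in K562, 13.6, 11.8, 11.6 and 10.7 CPM in K/VP.5, and 20.8, 19.2, 19.3 and 21.5 CPM in K562/SSedit-2. There was no overlap with either other line, and the change on the log2 scale was -0.79 (SE 0.09, adjusted p = 1.74e-06 by edgeR). Conversely, both DNA translocases that act after strand exchange, RAD54L and RAD54B, were higher, by 0.32 and 0.46 on the log2 scale. The RAD54B libraries overlapped between the lines.

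The Fanconi pathway had 3 of 11 members higher and 3 lower, also near those shares of 26.2% and 26.1%. Its core complex, a ubiquitin ligase, is held together by FANCA, FANCG and other subunits, and FANCL carries the ligase activity. FANCA (ENSG00000187741, chr16:89726683-89816977, minus strand) rose as far as CHEK1 and RAD54B within their standard errors, from 63.3, 68.3, 67.4 and 71.2 CPM in K562 to 87.4, 93.3, 94.4 and 99.2 CPM in K/VP.5, with 60.5, 64.9, 63.7 and 61.4 CPM in K562/SSedit-2. Every K/VP.5 library was above all others, and the change on the log2 scale was 0.47 (SE 0.06, adjusted p = 9.91e-06 by edgeR). FANCG rose by 0.34 and FANCF fell by 0.40, while FANCB, FANCC, FANCE, FANCL and FANCM did not pass. FANCM, with a log2 fold change of 0.16 and no overlap between the lines, was called higher by limma voom, by the DESeq2 Wald test, with upper-quartile scaling and without K562 replicate 1, and FANCB was called lower without K562 replicate 2 or 3.

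The substrates of the core complex, FANCD2 and FANCI, are clamped on DNA as a pair, and their levels moved in opposite directions. FANCD2 read 128, 99.2, 105 and 106 CPM in K562, 90.8, 94.8, 98.6 and 89.0 CPM in K/VP.5, and 107, 103, 102 and 109 CPM in K562/SSedit-2. Its log2 difference in K/VP.5 was -0.23 (SE 0.08, adjusted p = 0.0188 by edgeR), and that of FANCI was 0.30. SLX4, the scaffold for nucleases that unhook a crosslink (ENSG00000188827, chr16:3581181-3611606, minus strand), fell as far as SHLD2 and RAD51D within their standard errors, from 31.4, 35.4, 38.9 and 36.0 CPM in K562 to 17.7, 22.2, 20.3 and 21.0 CPM in K/VP.5. In K562/SSedit-2 it stood at 32.8, 35.0, 37.2 and 36.2 CPM. No K/VP.5 library reached the lowest K562 library, and the change on the log2 scale was -0.80 (SE 0.09, adjusted p = 9.88e-07 by edgeR).

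**Figure D2:**
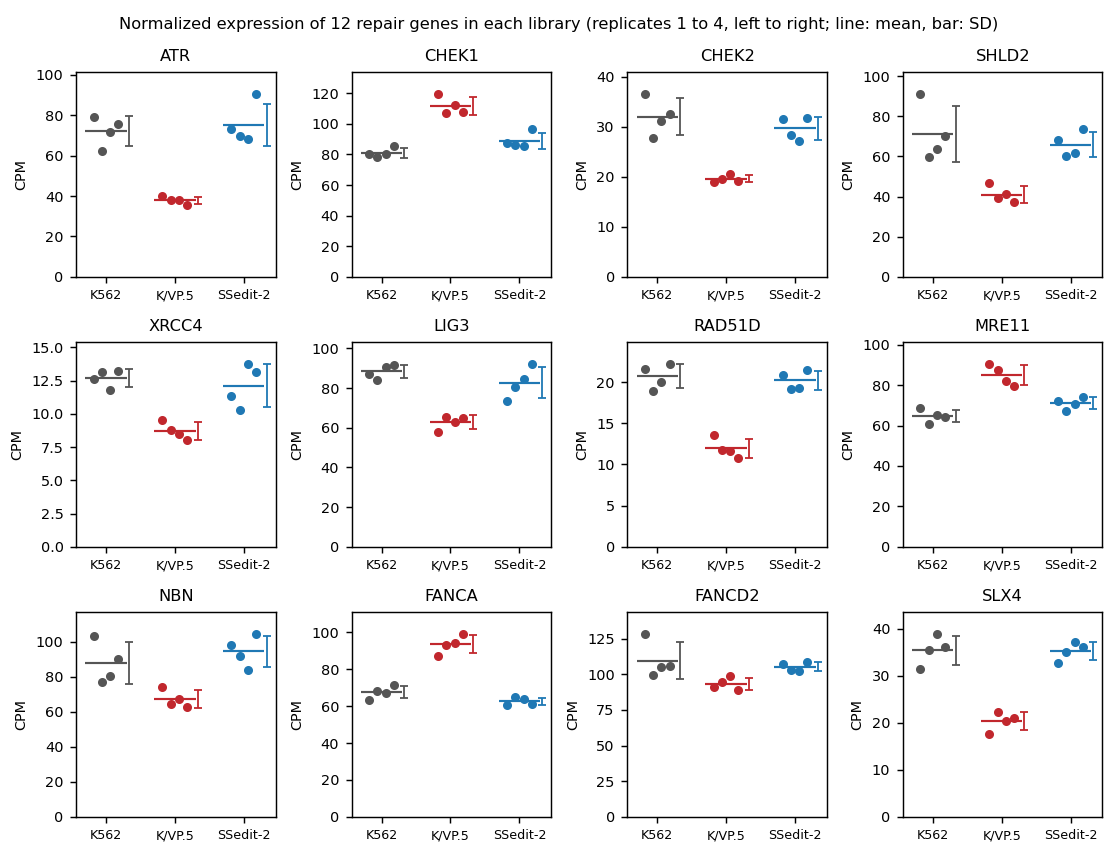
Normalized expression (CPM, vertical axes from 0) of 12 repair genes in the 4 libraries of each line, with the mean as a line and the SD as a bar. ATR, CHEK2, SHLD2, XRCC4, LIG3, RAD51D, NBN, FANCD2 and SLX4 were lower in all K/VP.5 libraries than in all K562 libraries, and CHEK1, MRE11 and FANCA were higher.

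Some genes whose proteins bind each other or act side by side differed in their proportions in K/VP.5. Ratios were computed for 14 pairs, of which 9 are plotted, picked after their values were seen and given as a description. The ratio of ATR to ATRIP was 2.58 ± 0.340 (SD, n = 4) for K562, 1.38 ± 0.0771 for K/VP.5 and 3.11 ± 0.490 for K562/SSedit-2. The ratio of SHLD2 to MAD2L2 went from 0.838 ± 0.139 for K562 to 0.363 ± 0.0225 for K/VP.5, and that of LIG3 to XRCC1 from 2.51 ± 0.133 to 1.57 ± 0.0945. For both pairs the K/VP.5 libraries lay outside the range of K562 and K562/SSedit-2. The ratio of NBN to MRE11 was 1.35 ± 0.129 for K562 and 0.791 ± 0.0403 for K/VP.5, and that of FANCD2 to FANCI was 0.649 ± 0.0563 and 0.449 ± 0.0176. Ratios of FANCF to FANCA (0.348 ± 0.0311 and 0.191 ± 0.0152), XRCC4 to NHEJ1 (1.43 ± 0.262 and 0.800 ± 0.0674) and RAD51D to XRCC2 (0.391 ± 0.0415 and 0.270 ± 0.0450) were also lower in every K/VP.5 library than in any K562 library. So was the ratio of CHEK2 to CHEK1, kinases that are not binding partners, at 0.396 ± 0.0435 and 0.176 ± 0.0117. The ratio of XRCC5 to XRCC6 was 0.776 ± 0.0317 for K562, 0.684 ± 0.00816 for K/VP.5 and 0.804 ± 0.0193 for K562/SSedit-2. That of FANCG to FANCA was 0.632 ± 0.0375 for K562 and 0.576 ± 0.0150 for K/VP.5, without overlap. Ratios of RAD50 to MRE11 (0.227 ± 0.0320 and 0.158 ± 0.0291) and BARD1 to BRCA1 (0.182 ± 0.00672 and 0.159 ± 0.00594) were also lower without overlap. That of RAD51C to XRCC3, 1.30 ± 0.279 and 1.02 ± 0.164, overlapped between these lines. Such separation was not computed for other gene pairs, and 43.0% of all tested genes did not overlap between these lines on their own.

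**Figure D3:**
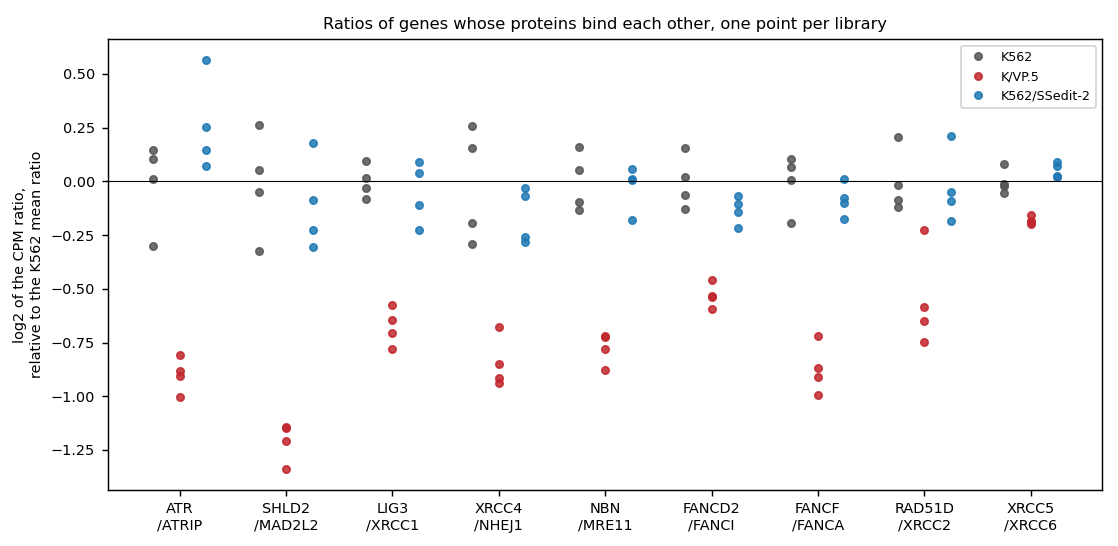
Log2 of the ratio of CPM between genes whose proteins bind each other, minus that of the mean K562 ratio, with 1 point per library (vertical axis) and the gene pairs along the horizontal axis. In K/VP.5 all 4 libraries lay below both other lines for every plotted pair, with the smallest displacement among these pairs for XRCC5 to XRCC6.

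Of the 30 members called in K/VP.5, 22 had the sign of the median log2 fold change of the tested genes within 5 Mb, beside 65.6% of all called genes, a share near the background. Of the 16 lower members 10 did so, beside 56.9% of all lower genes, and of the 14 higher members 12, beside 74.2%. On chromosome 16, FANCA near one end and SLX4 near the other went opposite ways with their neighbours. Within 5 Mb of FANCA 69 of 102 genes were higher and 9 lower (median log2 fold change 0.54), and within 5 Mb of SLX4 20 of 238 were higher and 120 lower (median -0.34). Around FANCG on chromosome 9, 58 of 95 genes were higher and 6 lower, with a median of 0.56. Around CHEK1 on chromosome 11, the median was 0.47, the same as that of CHEK1 itself to 2 decimals.

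The falls of LIG3 and RAD51D were not independent in position, since both lie on the same stretch of chromosome 17 and share neighbours. Around LIG3 69 of 126 genes were lower and 9 higher, and around RAD51D 69 of 130 and 9. SHLD2 on chromosome 10 had 28 of 41 neighbours lower and 2 higher (median -0.64). For ATR, at -0.93, the neighbours' median was -0.32, with 19 of 45 lower and 10 higher. CHEK2, XRCC4, POLQ and RIF1 had neighbour medians of 0.13, -0.0025, -0.15 and -0.17, opposite in sign to the member or near 0. In K562/SSedit-2 the neighbours' medians of the 55 members lay between -0.16 and 0.11.

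**Figure D4:**
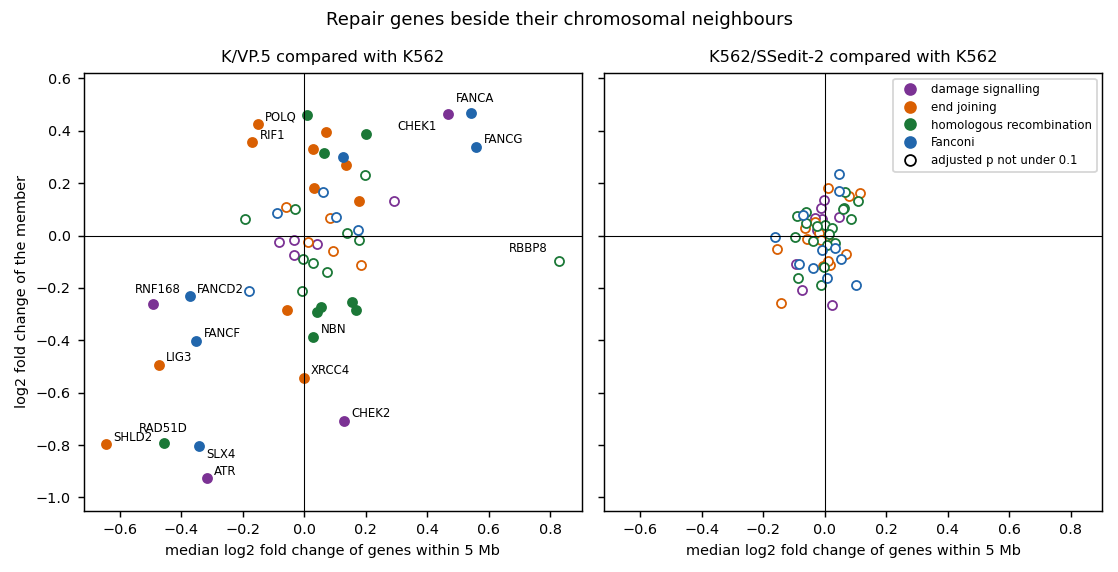
Log2 fold change of each of the 55 members (vertical axis) against the median log2 fold change of the tested genes within 5 Mb (horizontal axis), in K/VP.5 (left) and K562/SSedit-2 (right), each compared with K562. Filled points passed an adjusted p of 0.1. FANCA, FANCG and CHEK1 lie at the upper right and SHLD2, RAD51D, LIG3, SLX4 and ATR at the lower left. CHEK2 and XRCC4 fell while the medians of their neighbours were 0.13 and -0.0025. All points of K562/SSedit-2 lie near the centre.

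Repair genes are often transcribed head to head with another gene. For 19 members a tested coding gene started within 1 kb on the other strand. Of these members 8 were called in K/VP.5, and in all 8 the partner had the same sign (5 of them called as well), beside 70.1% of called genes with such a partner overall. SHLD2 and GLUD1 had log2 fold changes of -0.80 and -0.66, CHEK2 and HSCB -0.71 and -0.45, and MRE11 and ANKRD49 0.39 and 0.53. The log2 fold change of DNASE1, the partner of SLX4, was -0.02, and that gene, starting 122 bases away, did not pass the test (adjusted p = 0.891 by edgeR). CCT6B, the partner of LIG3, and GAS2, that of FANCF, did not pass either and averaged 0.389 and 0.836 CPM in K562. RAD51C and RAD52, which were not called, had partners of the opposite sign, TEX14 and ERC1.

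The start regions of 47 of the 55 genes were found in the RefSeq set for GRCh38.p14, and the 250 bases before the start were searched on both strands. The motif CCGGAAG, bound by ETS factors, occurred in 29.8% of the members, 15.4% of the regions of tested genes and 8.52% of all 35116 regions. The CCAAT box occurred in 44.7%, 34.7% and 32.0%. Among the 11 higher members with a sequence, 7 held a CCAAT box and 3 an ETS motif. Of the 13 lower members 2 held a CCAAT box and 7 an ETS motif, and of the 23 others 12 and 4. This split was noticed after the values were seen and is a description. The NRF1 motif occurred in 14.9% of the members and 10.4% of tested genes, and the CHR motif of cell cycle genes (searched as TTTGAA and, as a second form, also as TTCGAA) in 17.0% and 9.66%. An E2F motif occurred in 4.26% and 4.32%, and the GC box (GGGCGG) in 76.6% and 66.2%, with 11 of the 11 higher and 10 of the 13 lower members holding it. Shown here are the windows of the 2 largest falls and the 2 largest rises among the members whose window held at most 30 bases of annotated exon, 5′ to 3′ along the gene's strand. They let the motif positions be read beside opposite changes. Capitals mark matches of the ETS, NRF1 and CHR motifs and of the CCAAT box on either strand. ATR (chr3:142578734-142578983, minus strand) and LIG3 (chr17:34980262-34980511, plus strand) fell, and POLQ (chr3:121545989-121546238, minus strand) and RIF1 (chr2:151409652-151409901, plus strand) rose.
ATR: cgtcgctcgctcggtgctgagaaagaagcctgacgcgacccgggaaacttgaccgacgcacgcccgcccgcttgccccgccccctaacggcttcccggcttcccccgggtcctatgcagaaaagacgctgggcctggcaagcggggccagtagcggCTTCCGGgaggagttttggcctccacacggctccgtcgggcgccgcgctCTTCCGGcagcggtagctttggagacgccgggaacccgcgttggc
LIG3: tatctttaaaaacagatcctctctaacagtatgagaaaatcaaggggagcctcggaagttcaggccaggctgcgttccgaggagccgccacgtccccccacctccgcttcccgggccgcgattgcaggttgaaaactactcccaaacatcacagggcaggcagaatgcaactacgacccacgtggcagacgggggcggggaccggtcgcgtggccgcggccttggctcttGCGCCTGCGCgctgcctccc
POLQ: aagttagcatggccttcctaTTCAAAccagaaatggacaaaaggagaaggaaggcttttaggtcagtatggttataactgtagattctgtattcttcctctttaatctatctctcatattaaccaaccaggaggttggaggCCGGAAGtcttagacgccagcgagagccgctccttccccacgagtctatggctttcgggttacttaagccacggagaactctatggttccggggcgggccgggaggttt
RIF1: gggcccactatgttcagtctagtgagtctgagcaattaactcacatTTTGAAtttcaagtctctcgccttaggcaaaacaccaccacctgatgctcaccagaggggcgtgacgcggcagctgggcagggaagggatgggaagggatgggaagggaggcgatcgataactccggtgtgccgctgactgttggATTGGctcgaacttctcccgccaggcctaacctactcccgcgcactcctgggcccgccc

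ATR holds 2 ETS motifs close to its start and no CCAAT box, and LIG3 holds a single NRF1 match. POLQ, which rose, holds an ETS motif and a CHR match. RIF1 holds a CCAAT box and a CHR match.

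In K562/SSedit-2 compared with K562, no repair gene was called by the same test, in the fit without a block on replicate number. With edgeR's quasi-likelihood test 0 of 55 members passed an adjusted p of 0.1, beside 12.6% of all tested genes (4.86% higher, 7.79% lower). At an unadjusted p under 0.05 there were 9 members, beside 22.7% of all tested genes, and none passed 2-fold, beside 2.06%. Limma voom called 0 and the DESeq2 Wald test called 1, ATRIP. The log2 fold changes ran from -0.27 for H2AX to 0.24 for FANCB, with a median of 0.00, and the 95% intervals of all 55 lay between -0.53 and 0.47. A change of 2-fold lay outside the interval of every member. Same-numbered libraries of these lines varied together, and once the replicate number entered as a block PRKDC was called higher (log2 fold change 0.18, adjusted p = 0.0972 by edgeR) and ATRIP lower. Without K562 replicate 1, 6 members were called higher (BRIP1, FANCB, FANCM, MRE11, PRKDC and RBBP8) and 4 lower (ATRIP, FANCE, FANCG and RAD52), beside 19.5% of all genes called in that fit. With the block in addition the counts were 4 and 1, beside 18.4%. The share of members called was thus no higher than that of all genes in either fit.

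Libraries did not overlap for 2 members, compared with 13.2% of all tested genes. ATRIP had a log2 difference of -0.21 (SE 0.08, adjusted p = 0.107 by edgeR) and CHEK1 of 0.14 (SE 0.06, adjusted p = 0.210 by edgeR). Members with large changes in K/VP.5 gave these values here. ATR had a log2 fold change of 0.06 with an interval of -0.14 to 0.26, SLX4 of -0.01 with -0.19 to 0.17, RAD51D of -0.04 with -0.22 to 0.15, and FANCA of -0.11 with -0.24 to 0.02. These intervals allow changes of modest size.

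The derived lines were also compared directly, with the same libraries that were each set against K562 above. In K562/SSedit-2 relative to K/VP.5, 21 of 55 members were higher and 17 lower, beside 26.2% and 27.8% of all tested genes, 54.0% in all. Libraries did not overlap for 33 members, beside 47.4%. None passed 2-fold at an adjusted p of 0.1 by edgeR, beside 15.8% of all tested genes, with 38 members at an unadjusted p under 0.05, beside 53.3%. ATR came closest, with a log2 difference of 0.99 (SE 0.10, adjusted p = 2.73e-07 by edgeR), and passed 2-fold when K/VP.5 replicate 1 or 2, or K562/SSedit-2 replicate 1, 2 or 3, was left out. SLX4 at 0.80, RAD51D at 0.76 and SHLD2 at 0.68 were higher in K562/SSedit-2, and FANCA at -0.58, FANCG at -0.50 and RAD54L at -0.43 were lower. ATM was also higher, by 0.18 (adjusted p = 0.0323 by edgeR), a call lost with upper-quartile scaling and with no filter on low counts, and H2AX lower, by -0.40 (adjusted p = 0.0150 by edgeR).

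A wider list of 64 further repair genes, all tested, was chosen in the same way as the members. In K/VP.5 12 were higher and 22 lower than in K562, 53.1% in all beside 52.3% of all tested genes, with 2 past 2-fold, both lower, beside 15.6%. SFR1, a cofactor of recombination, averaged 6.33 ± 1.11 CPM (SD, n = 4) in K562, 2.19 ± 0.248 CPM in K/VP.5 and 6.89 ± 0.293 CPM in K562/SSedit-2, a log2 difference in K/VP.5 of -1.53 (SE 0.14, adjusted p = 1.36e-07 by edgeR). APLF, which links Ku to the ligase complex, averaged 1.48 ± 0.305, 0.546 ± 0.201 and 2.15 ± 0.314 CPM in the same order, a log2 difference of -1.40 (SE 0.25, adjusted p = 0.000221 by edgeR). Both were lower in every K/VP.5 library than in any other. By role, 3 of 16 signalling genes were higher and 8 lower in K/VP.5, 0 and 5 of 9 in end joining (5 at an unadjusted p under 0.05), 2 and 4 of 12 in the Fanconi pathway, and 7 and 5 of 27 in homologous recombination, beside 26.2% higher and 26.1% lower of all tested genes. In K562/SSedit-2 3 of the 64 were higher and 2 lower, beside 12.6% of all tested genes called, and none passed 2-fold by edgeR, with 9 at an unadjusted p under 0.05, beside 22.7%.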

How the data were processed

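RNA-seq of 12 samples was used, with groups and replicate numbers taken from the labels. The authors aligned 150-bp reads to GRCh38 with HISAT2 and deposited unnormalized whole counts per gene from featureCounts. The annotation release, the strand setting and the treatment of reads with several alignments are not given in the sources used here. Tools were edgeR 4.0.16 for the tests, DESeq2 1.42.0 and limma 3.58.1 for alternatives (all in R 4.3.3), and Python 3.11.15 with matplotlib 3.10.9. Symbols, positions and exon lengths came from GENCODE 44. Genes were kept by filterByExpr with a minimum count of 10, TMM factors were computed, and the 3 lines were compared in 1 edgeR quasi-likelihood fit of all samples, adjusting p values over the 18626 tested genes after Benjamini-Hochberg. A gene was called at an adjusted p under 0.1. The study used limma voom, an alternative here, with a 2-fold cutoff. Replicate numbers pair K562/SSedit-2 with K562, since deviations of same-numbered samples correlated in all 4 pairs (r = 0.135 to 0.292 across genes). For K/VP.5 and K562 r was -0.003 to 0.269, which does not show pairing. Members are named with values in every sample if best known in their group or among the 8 largest called changes without overlap in a comparison with K562, and further genes if past 2-fold there. Members and lists were chosen with earlier results of these data known. Other scalings, tests, filters and left-out replicates were tried, and the steps were tested on simulated data. 1 gene of the marker lists is not reported here.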

Additional observations from a re-analysis of the deposited data

Results flagged for a closer look

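Of 57 sets of 4 libraries checked, 1 held a library far from the others, where chance would flag about 1 in 20 sets. PRKDC was at 823 CPM in K562 replicate 2 and at 970 to 977 CPM in the other 3 K562 libraries.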

How the results depend on the processing

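For K/VP.5 compared with K562, 10 to 19 members were higher and 14 to 21 lower over the alternatives, the extremes being 19 with upper-quartile scaling and 21 without K562 replicate 2, both within 1.5 times the reported counts. The members' median log2 fold change turned from -0.02 to 0.043 with upper-quartile scaling (all tested genes went from 0.01 to 0.07), and leaving out 1 library gave -0.06 to -0.01. The count past 2-fold was 0 to 1 when a library was left out (1 without K562 replicate 2). For K562/SSedit-2 compared with K562, the block on replicate number gave 1 member higher and 1 lower, upper-quartile scaling 1 higher, a filter of at least 1 CPM in 4 samples 1 higher and 1 lower, the DESeq2 Wald test 1 lower and no filter 2 lower (H2AX and PAXX). Leaving out 1 library gave 0 to 6 higher and 0 to 4 lower, with the highest counts without K562 replicate 1, beside 19.5% of all genes. Without that library plus the block, chosen after seeing the data, 4 were higher and 1 lower, beside 18.4%. The cause was not tested. For K562/SSedit-2 compared with K/VP.5 the count past 2-fold was 0 to 1 when a library was left out. The block gave 15 higher and 16 lower in K/VP.5 against K562, beside 55.1% of all genes called. It changed no call by over 1.5 times outside K562/SSedit-2 against K562. Depth limits the lowest members most: RAD54B, SHLD1 and RAD51B were near or below 7 CPM.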
